A study of Mus musculus with 6 samples.

Results

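The 10 genes described here, Wnt3, Fzd5, Fzd7, Lrp5, Lrp6, Rnf43, Znrf3, Axin2, Ctnnb1 and Sox9, belong to the Wnt pathway of the intestinal crypt and were followed through single-cell RNA counts of mouse small intestinal epithelium. They are 10 of the 32285 features counted, were chosen by symbol, and were all present in the count tables. The questions were which cells carry their RNA and whether their RNA differs between control littermates and IE-HuR-/- mice, in which the RNA-binding protein HuR is to be removed from the intestinal epithelium. The 3 control mice were HuR fl/fl without Cre, listed as wild-type in the labels, and the 3 IE-HuR-/- mice were HuR fl/fl with Cre under the villin promoter, which is active in intestinal epithelial cells but not in fibroblasts or immune cells. All mice were of C57BL/6 background and 6 to 8 weeks old, and each gave 1 droplet library. The methods state a fast of 24 h with water, whereas the labels give ordinary food and drink. A unique molecular identifier (UMI) tags every RNA molecule that is captured, so that values are counts of molecules, or CPM, the UMIs of a gene scaled to 1000000 UMIs of the same cells.

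Wnt signalling keeps the crypt dividing. A secreted Wnt ligand binds a Frizzled receptor (Fzd5, Fzd7) together with a co-receptor, Lrp5 or Lrp6, which stops the destruction of β-catenin (Ctnnb1), and β-catenin then activates target genes with TCF factors in the nucleus. Axin2 is such a target and also a scaffold of the complex that destroys β-catenin, so that it feeds back on the pathway. Rnf43 and Znrf3 are membrane ubiquitin ligases that remove Frizzled receptors and are themselves cleared when R-spondins bind Lgr receptors. Wnt3 is known as the Wnt ligand of Paneth cells, the defensin-secreting cells at the crypt base, and Sox9 is a transcription factor of crypt progenitors, Paneth cells and tuft cells, the chemosensory cells of the epithelium.

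Cells were sorted into classes by the share of their UMIs that came from marker genes, none of which is a Wnt pathway gene. The Paneth-like class (defensins, Lyz1) held 74 cells, the progenitor-like class (cell cycle genes) 221, the enterocyte-like class 24900, the tuft-like class 142 and the fibroblast-like class 101. Goblet-like (980), enteroendocrine-like (275) and 4 blood cell classes were gated in the same way. Olfm4, a gene of crypt base cells that was not used for gating, had 349 to 1967 CPM over the libraries in progenitor-like and 0.252 to 0.799 CPM in enterocyte-like cells, and 51 of the 221 progenitor-like cells had an Olfm4 UMI. The 6 libraries held 60706 barcodes and 428980031 UMIs, between 59518012 and 91818560 per library. Pairs of libraries shared between 22 and 44 barcode sequences. Single barcodes weighed heavily on the rarest class: 1 barcode gave 87.6% of the Paneth-like UMIs of control replicate 2 and another 95.4% of those of control replicate 3. The largest barcode gave 59.6% in control replicate 1, and 61.7%, 15.05% and 57.3% in IE-HuR-/- replicates 1, 2 and 3, each with fewer than 100000 UMIs. In progenitor-like cells of control replicate 3, 1 barcode gave 40.2% of the UMIs. Paneth-like member counts are therefore mostly given with and without barcodes over 100000 UMIs, which leaves the smaller dominant barcodes in. Class differences without barcodes of that size kept control replicate 1 as the only Paneth-like control sum. Progenitor-like results are given where leaving out such barcodes changed a call.

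Elavl1, which encodes HuR, was not reduced in the mice labelled IE-HuR-/-. In enterocyte-like cells it had 28.6, 31.1 and 29.2 CPM in the control libraries and 31.0, 30.8 and 31.6 CPM in the others (log2 fold change 0.25, SE 0.050, edgeR adjusted p = 4.95e-05). These groups overlap, and before the scaling of the fit the log2 ratio of the mean CPM was 0.07. Tag counts outside the deleted part of a gene do not test the deletion, so a direction given below rests on the labels.

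In the GENCODE annotation of GRCm38, the build that the labels call mm10, the ligand gene Wnt3 lies at chr11:103774150-103817957. Of the receptors, Fzd5 lies at chr1:64730558-64737751, Fzd7 at chr1:59482424-59486955, Lrp5 at chr19:3584828-3686564 and Lrp6 at chr6:134446476-134566965. The ligase gene Rnf43 lies at chr11:87662722-87735539 and Znrf3 at chr11:5276324-5444847. Axin2 lies at chr11:108920349-108950783, Ctnnb1 at chr9:120929216-120960507 and Sox9 at chr11:112782224-112787760. Counts are per gene and do not separate exons or transcript forms.

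RefSeq promoters (GRCm38.p6, 250 bases before to 50 after a transcription start) were at hand for 6 of the 10 genes, as 8 windows. They were searched on both strands for the TCF/LEF letters CTTTGAA or CTTTGAT or CTTTGTA or CTTTGTT, a sequence through which β-catenin acts on its targets. Of all 32851 promoters, 16.9% held such letters. Among the members they stood in the windows of Wnt3 (CTTTGTT, from base 19 after the start) and Fzd7 (CTTTGTT on the opposite strand, 130 bases before the start), and in none of the windows of Fzd5, Axin2, Rnf43 and Ctnnb1. Here 3 stretches are printed 5′ to 3′ up to 25 bases after the start, with the matching letters in capitals: the ligand gene, with a match, a receptor gene with a match, and Axin2, the classical target, which has no match in this window.
Wnt3 (chr11:103773925-103774199, plus strand): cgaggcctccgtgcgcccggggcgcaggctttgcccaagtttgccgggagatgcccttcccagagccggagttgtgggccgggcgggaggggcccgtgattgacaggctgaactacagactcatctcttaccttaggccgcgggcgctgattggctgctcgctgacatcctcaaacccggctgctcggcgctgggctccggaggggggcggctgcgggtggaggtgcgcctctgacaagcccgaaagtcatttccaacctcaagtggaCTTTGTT
Fzd7 (chr1:59481897-59482171, plus strand): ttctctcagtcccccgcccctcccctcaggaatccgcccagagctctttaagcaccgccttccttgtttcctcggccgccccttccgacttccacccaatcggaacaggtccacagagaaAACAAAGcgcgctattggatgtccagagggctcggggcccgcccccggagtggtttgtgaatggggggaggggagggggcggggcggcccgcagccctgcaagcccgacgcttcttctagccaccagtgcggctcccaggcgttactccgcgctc
Axin2 (chr11:108920099-108920373, plus strand): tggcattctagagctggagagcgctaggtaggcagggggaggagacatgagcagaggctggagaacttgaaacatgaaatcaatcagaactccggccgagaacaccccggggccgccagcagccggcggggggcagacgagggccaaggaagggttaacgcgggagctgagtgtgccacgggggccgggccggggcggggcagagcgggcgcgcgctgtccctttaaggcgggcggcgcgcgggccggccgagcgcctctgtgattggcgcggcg

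The plot of levels by class shows how differently the 10 RNAs were spread. Wnt3 was present in few classes, Sox9 was highest in tuft-like cells and Ctnnb1 was found everywhere. Znrf3 was lower in enterocyte-like cells than in every other class with at least 3 of its UMIs. B or plasma-like, myeloid-like and erythroid-like cells had 1, 2 and 1 Znrf3 UMIs, so that their order against enterocyte-like cells is not known.

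**Figure D1:**
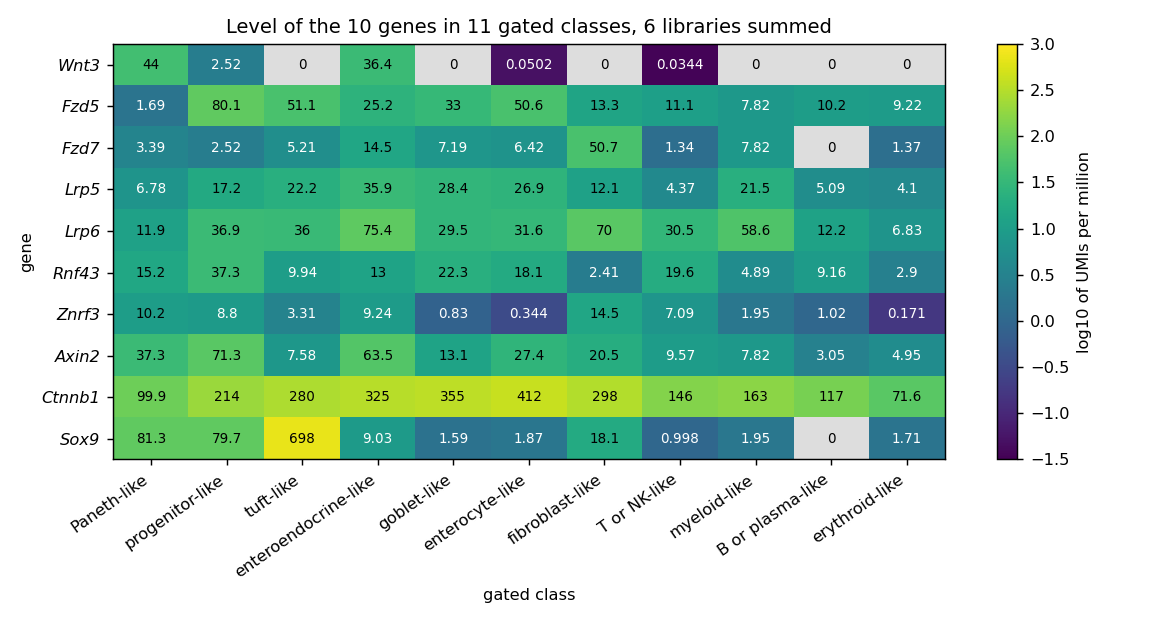
Level of each gene (rows) in each gated class (columns) as CPM, with the 6 libraries summed. Colour gives the log10 of the level and grey marks a count of 0. Wnt3 has 44.0 in Paneth-like and 36.4 in enteroendocrine-like cells against 0.0502 in enterocyte-like cells, and Sox9 has 698 in tuft-like cells.

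Wnt3 RNA came mainly from enteroendocrine-like cells, the hormone-secreting cells of the epithelium. Its level per UMI, before the scaling of the fit, was about as high in the few Paneth-like cells, whose own markers took up more of the UMIs. Of its 263 UMIs in all barcodes, 173 (65.8%) were in enteroendocrine-like cells and 26 (9.89%) in Paneth-like cells. A further 25 were in barcodes over more than 1 gate, 19 in barcodes in no gate, 13 in enterocyte-like, 6 in progenitor-like and 1 in T or NK-like cells. No Wnt3 UMI was found in tuft-like, goblet-like, fibroblast-like, myeloid-like, B or plasma-like or erythroid-like cells.

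In enteroendocrine-like cells Wnt3 had 26.8, 22.4 and 39.3 CPM in the control libraries and 52.5, 43.5 and 43.4 CPM in those labelled IE-HuR-/-. Every library had at least 21 Wnt3 UMIs in this class. Wnt3 was seen in 89 of 275 enteroendocrine-like cells (32.4%, exact 95% binomial interval 26.9% to 38.2%) but in 12 of 24900 enterocyte-like cells (0.0482%, 0.0249% to 0.0842%). Median depth differed between these classes, with 10880 to 24030 UMIs per cell and library in the first and 1848 to 4384 in the second, but the level per UMI, 36.4 against 0.0502 CPM, was 724 times as high. In the fit with the library as a block, Wnt3 was higher by 8.39 on the log2 scale in enteroendocrine-like than in enterocyte-like cells (SE 0.42, edgeR adjusted p = 1.22e-24), and between 7.98 and 9.05 under the alternatives, called in all 12. Against the limit of 3 counts, it was at least 175-fold higher than in goblet-like, at least 25.6-fold higher than in tuft-like and at least 10.0-fold higher than in fibroblast-like cells. Intervals and limits cover counting error only, since cells of 1 library are not replicates.

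The Wnt3 of enteroendocrine-like cells did not follow Tph1, a gene of serotonin synthesis, in the same way in every library. Cells with at least 10 Tph1 UMIs had 45.8 CPM of Wnt3 over all libraries (97 UMIs in 102 cells) and the other cells 28.8 CPM (76 UMIs in 173 cells). The order differed between libraries. In control replicate 3 and IE-HuR-/- replicates 1 and 3 the cells rich in Tph1 had 63.0, 80.6 and 59.1 CPM against 18.5, 29.6 and 28.4 CPM in the others. In control replicates 1 and 2 the cells rich in Tph1 had 20.7 and 17.3 CPM against 31.5 and 25.3 CPM in the others, and in IE-HuR-/- replicate 2 both had about the same level, 43.5 and 43.6 CPM. Summed Paneth markers made up at most 0.0049% of the enteroendocrine-like UMIs of any library, with 4 of 16 markers at 0. Barcodes that also passed the Paneth gate were left out of this class, so that this low share follows partly from the gating.

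In Paneth-like cells Wnt3 had 0, 5 and 16 UMIs in the control libraries and 0, 1 and 4 UMIs in the others, which is 44.0 CPM over all (exact 95% Poisson interval 28.8 to 64.5). This interval holds that of the enteroendocrine-like class, 31.1 to 42.2 CPM. Paneth markers made up 28.75% to 73.58% of Paneth-like UMIs in the control libraries and 26.25% to 71.94% in the others. Enteroendocrine markers made up 13.85% to 19.89% and 19.23% to 20.96% of enteroendocrine-like UMIs. The part of these shares in the Wnt3 levels per UMI was not tested, so similar CPM does not show equal Wnt3 levels. All 16 UMIs of control replicate 3 came from 1 barcode of 256588 UMIs, and 3 more from the barcode of 151395 UMIs in control replicate 2. The other 72 cells had 7 Wnt3 UMIs in 182387, or 38.4 CPM. Paneth-like cells were higher than enterocyte-like cells by 9.45 on the log2 scale (SE 1.09, edgeR adjusted p = 2.71e-10), where enteroendocrine-like cells were higher by 8.39. Paneth-like and enteroendocrine-like cells were not tested against each other. Without the barcodes over 100000 UMIs the Paneth-like sums of control replicates 2 and 3 fell below the 10 cells needed and left this fit. Its only Paneth-like control sum was then replicate 1, with 0 Wnt3 UMIs, and the difference was 4.43. This value therefore cannot show whether the call rested on those barcodes. Progenitor-like cells had 6 Wnt3 UMIs in 4 libraries, or 2.52 CPM. They were higher than enterocyte-like cells by 4.03 (SE 1.59, adjusted p = 0.0222), but this was not past the threshold without control replicate 2 (adjusted p = 0.998), without IE-HuR-/- replicate 2 (0.0514) or with the stricter gate (1).

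**Figure D2:**
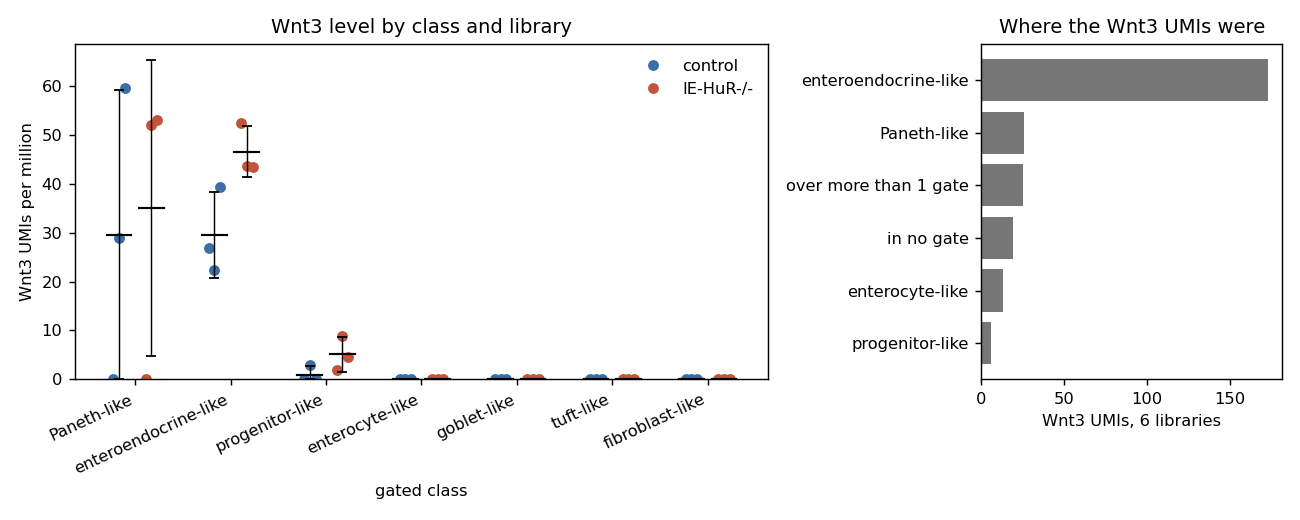
Left, Wnt3 CPM by gated class, with 1 point per library, bars at the mean of 3 libraries and whiskers of 1 SD (cut at 0). Right, the number of Wnt3 UMIs by class, of which 173 of 263 were in enteroendocrine-like cells. The 3 enteroendocrine-like values labelled IE-HuR-/- lie at 43.4 CPM or above and the 3 control values at 39.3 CPM or below. Wnt3 was not called between labels in this class, and the share of all features whose groups separate is not given here.

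Class differences of the other genes were read from the same fit of each class against enterocyte-like cells, over 10490 features. TMM scaling, which corrects for the composition of each sum, moved these differences: without it Ctnnb1 shifted by 0.78 in progenitor-like, 0.65 in tuft-like, 0.81 in fibroblast-like and 0.71 in enteroendocrine-like cells. Of the 9 members tested (Znrf3 was too low), 3 were higher and 4 lower in progenitor-like cells, where 29.4% and 38.8% of all features were. In tuft-like cells 1 was higher and 6 lower (all features, 26.7% and 33.6%), and in fibroblast-like cells 1 and 4 (24.1% and 27.8%). In enteroendocrine-like cells 4 were higher and 3 lower (35.1% and 37.0%), in goblet-like cells 1 and 2 (22.7% and 33.3%), and in Paneth-like cells 2 and 4 (3.25% and 33.8%). Without the barcodes over 100000 UMIs, the Paneth-like sums of control replicates 2 and 3 fell below the 10 cells that this fit needs. That left 1 Paneth-like control sum, so the Paneth-like calls could not be checked in this way. The fibroblast-like sums of IE-HuR-/- replicates 1 and 2, with 7 and 6 cells, were left out of the main fit by the same rule.

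Fzd5, a Frizzled of the intestinal epithelium, had 80.1 CPM in progenitor-like, 51.1 in tuft-like, 50.6 in enterocyte-like and 33.0 in goblet-like cells, and 1 UMI in Paneth-like cells. Over libraries it was between 46.9 and 108 CPM in progenitor-like and between 49.0 and 52.9 CPM in enterocyte-like cells. These ranges overlap, and the fitted difference was -0.14 with TMM (adjusted p = 0.432) and 0.63 without it (adjusted p = 0.000449), so that no direction holds for Fzd5 under both scalings. Fzd5 fell by 1.75 on the log2 scale in enteroendocrine-like cells (SE 0.16, adjusted p = 1.32e-16), with 25.2 CPM. The blood cell classes had between 7.82 and 11.1 CPM of Fzd5, and erythroid-like cells, which should lack an epithelial receptor, had 9.22.

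Fzd7, the Frizzled known from intestinal stem cells, was highest in fibroblast-like cells, with 50.7 CPM (42 UMIs), followed by enteroendocrine-like cells with 14.5 CPM. It had 6.42 CPM in enterocyte-like and 2.52 CPM (6 UMIs) in progenitor-like cells, a log2 difference of -2.19 (SE 0.56, adjusted p = 0.000363) that was called under all 12 alternatives. In fibroblast-like cells Fzd7 had 40.3, 58.8 and 96.5 CPM in the control libraries and 31.8, 0 and 19.5 CPM in the others. The difference of 1.62 from enterocyte-like cells (SE 0.83) had an adjusted p of 0.0972, and of 1.65e-08 without IE-HuR-/- replicate 3, the only library of its label in that fit.

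The co-receptor Lrp5 had 35.9 CPM in enteroendocrine-like, 28.4 in goblet-like, 26.9 in enterocyte-like and 17.2 in progenitor-like cells. It was lower in progenitor-like than in enterocyte-like cells under both scalings (-1.45, SE 0.23, adjusted p = 4.13e-08, and -0.68 without TMM). For Lrp5 in enteroendocrine-like cells the difference turned from -0.28 to 0.43 without TMM. Lrp6 had 75.4 CPM in enteroendocrine-like, 70.0 in fibroblast-like and 31.6 in enterocyte-like cells. The enteroendocrine-like libraries lay between 61.5 and 88.3 CPM and the enterocyte-like ones between 28.8 and 36.3 CPM, without overlap. Lrp6 was higher there by 0.57 (SE 0.11, adjusted p = 8.31e-06), a call kept under all 12 alternatives. In fibroblast-like cells its difference of 0.77 (SE 0.29, adjusted p = 0.0228) was called under 2 of 12 alternatives and fell to 0.14 (adjusted p = 0.733) without IE-HuR-/- replicate 3. Its differences in progenitor-like (-0.60) and tuft-like cells (-0.46) turned to 0.17 and 0.18 without TMM.

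Of the ligases, Rnf43 was highest in progenitor-like cells and Znrf3 was low in enterocyte-like and goblet-like cells. Rnf43 had 37.3 CPM in progenitor-like, 22.3 in goblet-like, 19.6 in T or NK-like and 18.1 in enterocyte-like cells. Between progenitor-like and enterocyte-like cells the difference was 0.32 (SE 0.20, adjusted p = 0.163), not past the threshold, and 1.09 without TMM (adjusted p = 8.92e-06), and it was called under 5 of 12 alternatives, among them without barcodes over 100000 UMIs (0.48, adjusted p = 0.0377), without control replicate 3 (0.51, adjusted p = 0.0468) and without IE-HuR-/- replicate 2 (0.55, adjusted p = 0.0205). Goblet-like cells were higher in Rnf43 than enterocyte-like cells by 0.51 (SE 0.12, adjusted p = 0.000164), under all 12 alternatives. Znrf3 had 515 UMIs in all, of which 206 (40.0%) were in T or NK-like and 89 (17.3%) in enterocyte-like cells, although enterocyte-like cells held most UMIs of any class. Its level was 14.5 CPM in fibroblast-like, 9.24 in enteroendocrine-like, 8.80 in progenitor-like, 7.09 in T or NK-like and 0.344 in enterocyte-like cells (exact Poisson interval 0.276 to 0.423). The ratio to enterocyte-like cells was 26.9 for enteroendocrine-like, 25.6 for progenitor-like and 20.6 for T or NK-like cells. Among libraries, T or NK-like cells had between 6.06 and 8.67 CPM of Znrf3 and enterocyte-like cells between 0.143 and 0.546 CPM, without overlap. Znrf3 did not enter the test of classes, so these are values without a p.

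Axin2, the feedback target, was high in progenitor-like cells with 71.3 CPM and in enteroendocrine-like cells with 63.5 CPM. Paneth-like cells had 37.3 CPM (22 UMIs, of which 11 and 7 came from the 2 barcodes over 100000 UMIs). Without barcodes of that size Paneth-like cells had 21.9 CPM (4 UMIs) and enterocyte-like cells 27.3 CPM. Axin2 was not among the 2 members called higher in Paneth-like than in enterocyte-like cells. Enterocyte-like cells had 27.4 CPM, goblet-like cells 13.1 and tuft-like cells 7.58. In progenitor-like cells the libraries ranged from 26.6 to 158 CPM, with control replicates 2 and 1 at the ends, so that the spread was wide. The difference from enterocyte-like cells was 0.51 (SE 0.19, adjusted p = 0.0126), but was not past the threshold without control replicate 1 (0.22, adjusted p = 0.328), IE-HuR-/- replicate 1 (0.52, adjusted p = 0.0554) or IE-HuR-/- replicate 3 (0.48, adjusted p = 0.0672). The call was also lost with the stricter gate (0.53, adjusted p = 0.0998) and without a filter on low counts (0.32, adjusted p = 0.0907). Enteroendocrine-like cells were between 44.2 and 93.9 CPM, above every enterocyte-like library (24.7 to 32.4 CPM), with a difference of 0.47 (SE 0.14, adjusted p = 0.00281). Without IE-HuR-/- replicate 2 this was 0.35 (adjusted p = 0.0714). This difference was not past the threshold either with the looser gate (0.30, adjusted p = 0.0717). The same held after filtering cells by gene number and mitochondrial share (0.29, adjusted p = 0.0803). In tuft-like cells Axin2 fell by 2.56 on the log2 scale (SE 0.36, adjusted p = 6.49e-09) and in goblet-like cells it fell by 0.96 (SE 0.15, adjusted p = 1.21e-07), each under all 12 alternatives. Axin2 was seen in 109 of 275 enteroendocrine-like cells (39.6%), in 51 of 221 progenitor-like cells (23.1%) and in 27 of 1368 erythroid-like cells (1.97%). Median depth over libraries was 10880 to 24030, 2518 to 9815 and 3469 to 4388 UMIs per cell in these classes. The shares therefore also reflect depth and do not order the levels. Erythroid-like cells are given as a rough guide to free RNA, a use that was not tested. Erythroid markers made up 72.3% to 83.8% of their UMIs in the control libraries and 75.4% to 78.4% in the others. The CPM of other genes in this class is lowered by that share.

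Ctnnb1, which also joins cadherins at cell contacts, was found in every class, between 71.6 CPM in erythroid-like and 412 CPM in enterocyte-like cells. Goblet-like cells had 355 CPM, enteroendocrine-like 325, fibroblast-like 298, tuft-like 280, progenitor-like 214 and Paneth-like cells 99.9 CPM. Progenitor-like libraries (167 to 242 CPM) all lay below enterocyte-like libraries (384 to 452 CPM), a log2 difference of -1.74 (SE 0.12, adjusted p = 4.69e-23), and of -0.97 without TMM. The goblet-like and enterocyte-like levels of Ctnnb1 did not differ past the threshold (-0.09, SE 0.11, adjusted p = 0.514).

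Sox9 RNA was chiefly that of tuft-like cells. Of its 3052 UMIs, 1475 (48.3%) came from 142 tuft-like cells, which together held 2111886 of the 428980031 UMIs. Tuft-like cells had 698 CPM, Paneth-like 81.3, progenitor-like 79.7, fibroblast-like 18.1, enteroendocrine-like 9.03 and enterocyte-like cells 1.87 CPM. Sox9 was seen in 118 of 142 tuft-like cells (83.1%), in 50 of 221 progenitor-like cells (22.6%) and in 260 of 24900 enterocyte-like cells (1.04%). Median depth over libraries was 9200 to 22190, 2518 to 9815 and 1848 to 4384 UMIs per cell in these classes, so that the shares also reflect depth. The tuft-like level was 374 times that of enterocyte-like and 8.77 times that of progenitor-like cells. The fitted difference from enterocyte-like cells was 7.87 (SE 0.17, adjusted p = 2.34e-30), between 7.68 and 8.52 under the alternatives. For progenitor-like cells it was 4.62 (SE 0.32, adjusted p = 1.34e-15), again under all 12 alternatives. Cells that also passed the tuft gate were left out of the progenitor-like class, so that few tuft marker UMIs there follow partly from the gating. Of its 221 cells, 3 had a UMI of Trpm5 and 4 of Dclk1, both tuft gate markers. All tuft markers made up 0.000733% to 0.00325% of its UMIs in the control libraries and 0.000915% to 0.02415% in the others (3 of 19 at 0). Their part in the progenitor-like Sox9 values was not tested. In Paneth-like cells, 29 and 14 of the 48 Sox9 UMIs came from the 2 barcodes over 100000 UMIs. The Paneth-like difference was 4.61 (SE 1.85, adjusted p = 0.0486). Without those barcodes it became -1.09, in a fit whose only Paneth-like control sum was replicate 1, with 0 Sox9 UMIs. This fit therefore cannot show what those barcodes did to the difference. The other 72 cells had 5 Sox9 UMIs, or 27.4 CPM, against 1.70 CPM in enterocyte-like cells without such barcodes. The call was lost without TMM (adjusted p = 0.0504) and without control replicate 2 or 3 or any IE-HuR-/- replicate (0.063 to 0.17).

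**Figure D3:**
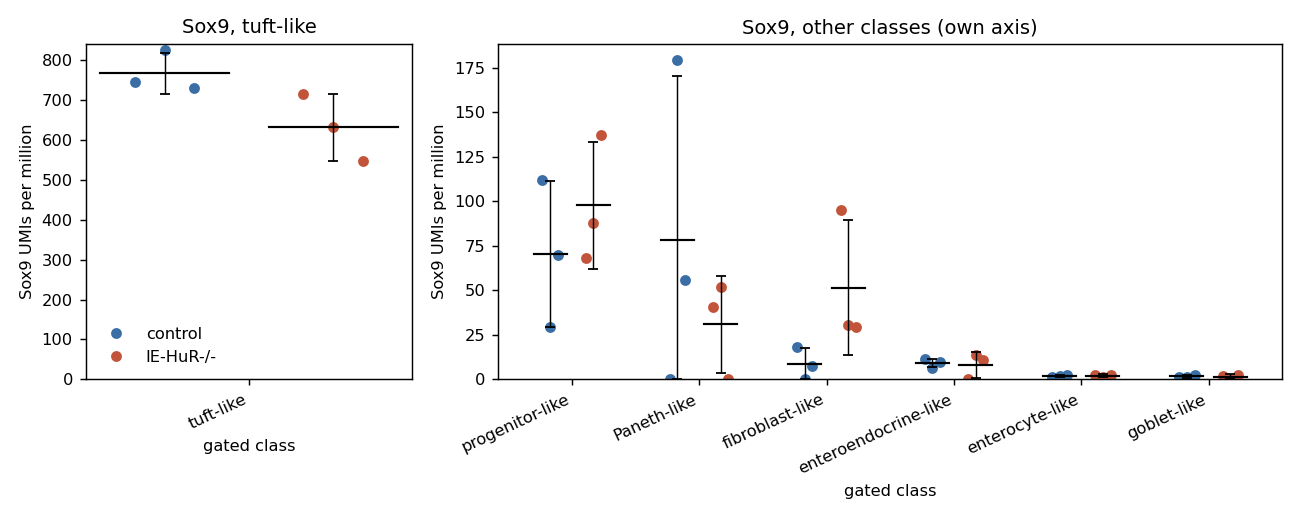
Sox9 CPM, tuft-like cells on the left and other classes on the right with an axis of their own. Each point is a library, bars are means of 3 libraries and whiskers 1 SD (cut at 0). Tuft-like libraries lie between 548 and 827 CPM and progenitor-like libraries between 29.6 and 137 CPM.

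Label differences were clearest in enterocyte-like cells, the class with most UMIs. There 5 of the 9 members tested were called higher in the libraries labelled IE-HuR-/- (Fzd5, Fzd7, Lrp5, Axin2 and Ctnnb1) and 2 lower (Rnf43 and Znrf3), while Lrp6 and Sox9 were not called and Wnt3, with 13 UMIs, was too low to test. Of all 12332 features, 59.9% were called, 28.6% higher and 31.3% lower, so that calls were common. The median log2 fold change of the members was 0.37 and that of all features -0.03. Without TMM the median of all features was -0.21, and 1858 features were called higher and 6214 lower, in place of 3530 and 3862. Fzd5 was the member whose direction turned with it.

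Lrp5 had 25.1, 22.4 and 25.5 CPM in the control libraries and 30.6, 31.1 and 29.5 CPM in those labelled IE-HuR-/-. The groups did not overlap, with a log2 fold change of 0.50 (SE 0.054, edgeR adjusted p = 3.60e-10). Fzd7 had 6.14, 5.86 and 5.56 CPM against 7.03, 7.18 and 7.12 CPM, again without overlap (0.46, SE 0.081, adjusted p = 7.12e-06), but was not called with the stricter gate (0.21, adjusted p = 0.229). Ctnnb1 had 385, 384 and 396 CPM against 441, 436 and 452 CPM, groups that did not overlap (0.37, SE 0.039, adjusted p = 2.09e-10). Axin2 had 27.8, 24.7 and 24.8 CPM against 26.9, 32.4 and 29.1 CPM, groups that overlap in CPM, with a fold change of 0.38 (SE 0.063, adjusted p = 1.62e-05) and 0.20 without TMM. Fzd5 had 52.9, 50.7 and 49.5 CPM against 50.7, 50.4 and 49.0 CPM, with 0.15 after TMM (SE 0.046, adjusted p = 0.00454) and -0.03 without it (adjusted p = 0.571).

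Both ligases were lower. Rnf43 had 21.5, 21.1 and 21.7 CPM in the control libraries and 12.3, 15.6 and 13.6 CPM in the others, so that each control library lay above each of the others. Its fold change was -0.45 (SE 0.065, adjusted p = 4.66e-07), and between -0.63 and -0.35 under the alternatives, always called. Znrf3 had 0.413, 0.408 and 0.546 CPM against 0.143, 0.202 and 0.278 CPM, which are 20, 23 and 22 UMIs against 5, 8 and 11. Its fold change of -0.91 (SE 0.37, adjusted p = 0.0297) was not past the threshold without control replicate 3 (adjusted p = 0.109), with DESeq2 (0.132), or when IE-HuR-/- replicate 1 (0.140) or 2 (0.0860) was left out. Lrp6 had 36.3, 31.7 and 32.5 CPM against 29.3, 28.8 and 29.8 CPM, which do not overlap, but after TMM the fold change was -0.01 (adjusted p = 0.846), and -0.19 without it (adjusted p = 0.00192). Sox9 had 1.41, 1.67 and 2.23 CPM against 2.70, 1.11 and 2.38 CPM (0.40, adjusted p = 0.392). Without IE-HuR-/- replicate 2, its lowest library, Sox9 was called at 0.72 (adjusted p = 0.00144). It was also called with the stricter gate (1.12, adjusted p = 0.00649) and without a filter on low counts (0.41, adjusted p = 0.0428).

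Some markers of other cells moved with the label within the enterocyte-like class. Fibroblast markers made up 0.0265% to 0.0271% of its UMIs in the control libraries and 0.0206% to 0.0212% in the others, with 0 of 15 at 0. Progenitor markers made up 0.00784% to 0.00867% and 0.00705% to 0.00776%, enteroendocrine markers 0.0106% to 0.0160% and 0.0162% to 0.0196%, and general epithelial markers 1.497% to 1.549% and 1.90% to 1.98%. B or plasma markers made up 0.000129% to 0.000304% and 0.00137% to 0.00237%, erythroid markers 0.0165% to 0.0395% and 0.0108% to 0.0140%, and myeloid markers 0.00421% to 0.00637% and 0.00338% to 0.00388%, with no marker of these lists at 0. Enterocyte markers themselves were at 9.03% to 9.42% and 9.41% to 9.78%. The part of these shifts in the differences above was not tested.

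**Figure D4:**
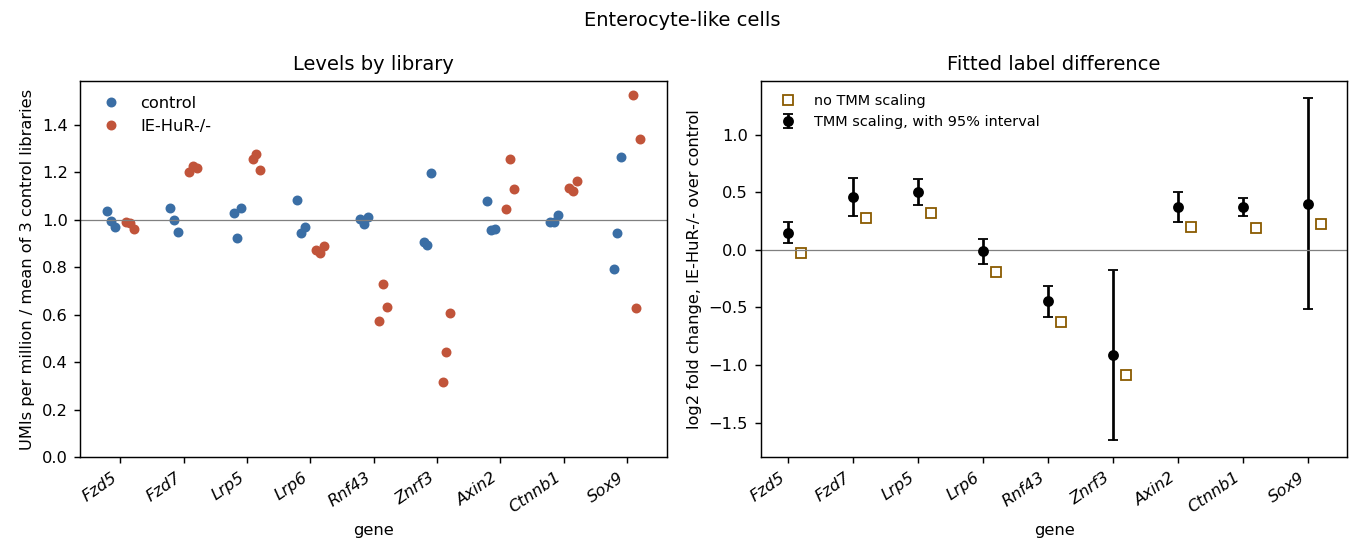
Enterocyte-like cells. Left, level of each gene in each library relative to the mean of the 3 control libraries. Right, fitted log2 fold change of libraries labelled IE-HuR-/- over control with its 95% interval (black) and the value without TMM scaling (open squares). Rnf43 and Znrf3 lie below 0, Lrp5 at 0.50 and Ctnnb1 at 0.37, and Fzd5 crosses 0 without TMM.

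In the other classes tested between labels 1 member was called. Goblet-like cells gave 1 called member of 7, Ctnnb1, where 10.3% of 8078 features were called higher and 8.37% lower. It had 324, 347 and 321 CPM in the control libraries and 371, 377 and 392 CPM in those labelled IE-HuR-/- (0.31, SE 0.11, adjusted p = 0.0496), without overlap. This call rested at the threshold and was lost without any of control replicates 1, 2 and 3 or IE-HuR-/- replicates 1 and 3 (adjusted p = 0.0767 to 0.144), without TMM (0.191) and with DESeq2 (0.0608). In goblet-like cells general epithelial markers made up 1.48% to 1.49% of UMIs in the control libraries and 2.06% to 2.19% in the others, Paneth markers 0.0240% to 0.0524% and 0.0690% to 0.0775% (3 of 16 at 0), and enteroendocrine markers 0.0357% to 0.0374% and 0.0475% to 0.0526% (1 of 15 at 0). Fibroblast markers made up 0.00573% to 0.00872% and 0.00186% to 0.00449% (6 of 15 at 0), tuft markers 0.00152% to 0.00237% and 0.00244% to 0.00288% (1 of 19 at 0), and myeloid markers 0.00914% to 0.00964% and 0.0123% to 0.0130% (1 of 11 at 0). The part of these shifts in the Ctnnb1 difference was not tested. Lrp5 in goblet-like cells had 27.2, 28.0 and 23.6 CPM against 31.9, 31.8 and 28.3 CPM, not past the threshold (0.32, adjusted p = 0.179). In enteroendocrine-like cells 0 of 8 members tested were called, where 0.783% of 8176 features were (64 with edgeR, and 928 at an unadjusted p under 0.05). The groups of Wnt3 and Lrp5 did not overlap, but neither gene was called. The share of all features whose groups did not overlap is not given here, so this separation has nothing to be judged against. Lrp5 had 32.4, 19.2 and 38.3 CPM in the control libraries and 45.2, 44.8 and 43.4 CPM in the others (0.60, SE 0.26, adjusted p = 0.388). For Wnt3 the fold change of 0.68 (SE 0.26, 95% interval 0.14 to 1.22) had an adjusted p of 0.295, and between 0.169 and 0.799 over the alternatives. In this class goblet markers made up 0.468% to 0.621% of UMIs in the control libraries and 0.369% to 0.463% in the others, and general epithelial markers 0.881% to 1.05% and 1.13% to 1.33%, and their part in the Wnt3 values was not tested.

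In progenitor-like cells 0 of 6 members tested were called, and 0.202% of 4944 features were (10 with edgeR, 344 at an unadjusted p under 0.05). Axin2 had 158, 26.6 and 77.0 CPM in the control libraries and 51.0, 41.0 and 59.5 CPM in the others, so that the control libraries lay on both sides of the others (-0.91, SE 0.55, adjusted p = 0.826). Fzd5 had 75.4, 85.7 and 108 CPM against 81.1, 46.9 and 59.5 CPM (-0.57, SE 0.29, 95% interval -1.17 to 0.03, adjusted p = 0.757). Sox9 had 112, 29.6 and 69.7 CPM against 67.9, 88.0 and 137 CPM (0.29, SE 0.38, adjusted p = 0.931). In tuft-like cells 0 of 4 members were called, beside 0.232% of 4739 features (11 with edgeR, 335 at an unadjusted p under 0.05). Tuft-like Sox9 had 744, 827 and 731 CPM in the control libraries and 715, 633 and 548 CPM in the others. These groups did not overlap, though the nearest values were 731 and 715 CPM, and the fold change was -0.30 (SE 0.17, 95% interval -0.65 to 0.06, adjusted p = 0.846). Goblet markers made up 0.0700% to 0.174% of tuft-like UMIs in the control libraries and 0.0525% to 0.0551% in the others (0 of 9 at 0), and progenitor markers 0.0218% to 0.0243% and 0.0185% to 0.0199% (5 of 24 at 0), and their part in the Sox9 values was not tested. In fibroblast-like cells only Ctnnb1 could be tested (0.43, SE 0.31, adjusted p = 0.989), beside 1.41% of 2059 features called (29 with edgeR, 140 at an unadjusted p under 0.05).

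In Paneth-like cells no member reached the count needed for a test of labels, and 18.0% of 250 features were called. Rnf43 had 1, 5 and 3 UMIs in the control libraries and 0 in all 3 others, Znrf3 had 1, 3 and 2 against 0, and Axin2 had 1, 13 and 7 against 0, 0 and 1. The sums differed in depth, with 29123, 172809 and 269013 UMIs in the control libraries and 24694, 19251 and 75480 in the others. All but that of IE-HuR-/- replicate 2 came mostly from 1 barcode. The Rnf43 UMIs came from 1, 2 and 1 cells of the control libraries and the Znrf3 UMIs from 1 cell in each. Olfm4, the crypt base gene, had 1339, 1337 and 978 CPM in the Paneth-like sums of the control libraries and 122, 104 and 119 CPM in the others. Progenitor markers also differed there, at 0.0156% to 0.192% of UMIs in the control libraries and 0.00265% to 0.0122% in the others, with 0 of 24 at 0, and the part of both in these counts was not tested. A label difference of these 3 genes in Paneth-like cells was not detectable at this depth. Wnt3 had 0, 28.9 and 59.5 CPM in the control libraries and 0, 52.0 and 53.0 CPM in the others, so that the groups overlapped over nearly their whole range.

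**Figure D5:**
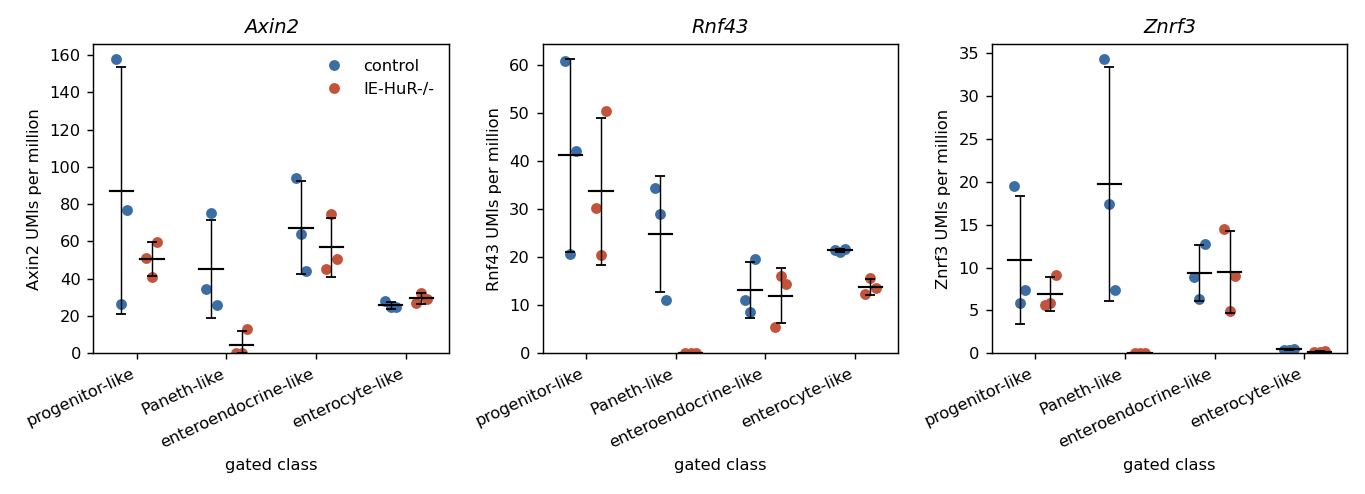
CPM of the Wnt feedback genes Axin2, Rnf43 and Znrf3 in 4 classes. Each point is a library, bars are means of 3 libraries and whiskers 1 SD (cut at 0). In enterocyte-like cells Rnf43 lies between 21.1 and 21.7 CPM in the control libraries and between 12.3 and 15.6 CPM in the others, whereas progenitor-like values overlap and Paneth-like values rest on 9 Rnf43 and 6 Znrf3 UMIs.

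Whether a label difference was itself different from that in enterocyte-like cells was tested in the fit of all classes. No member passed in progenitor-like, Paneth-like, tuft-like, goblet-like or enteroendocrine-like cells, where 0.553%, 2.88%, 0.400%, 1.85% and 1.88% of 10490 features did. In fibroblast-like cells, where the IE-HuR-/- label had only replicate 3 in this fit, no member was called either, beside 0.448% of features. Ctnnb1 in B or plasma-like cells did pass and is described further below. In the classes named here, the lowest adjusted p of a member was that of Axin2 in progenitor-like cells, a difference of -1.28 (SE 0.35, adjusted p = 0.0668). Without control replicate 2 it was -1.58 and was called (adjusted p = 0.00272).

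The rest of the pathway was followed with a list of 79 further genes. Of the ligands, Wnt5a was highest in fibroblast-like cells with 765 CPM (between 516 and 1061 over libraries) against 2.81 CPM in enterocyte-like cells. Wnt9a, Wnt11, Wnt5b, Wnt7b and Wnt2b were also highest there, at 56.7, 26.5, 19.3, 18.1 and 12.1 CPM. Wnt4 had 49.5 CPM (41 UMIs) in fibroblast-like cells and was about as high in myeloid-like cells, with 44.95 CPM. Wnt2 was highest in myeloid-like cells with 25.4 CPM. Wnt6 had 281 UMIs in enterocyte-like cells (1.08 CPM), Wnt9b 12 (0.0463 CPM) and Wnt16 9 (0.0347 CPM), levels below the limit of 3 counts in fibroblast-like, tuft-like and Paneth-like cells, so that their order among classes is not known. In T or NK-like cells Wnt10a had 1.62 CPM and Wnt10b 5 UMIs. The Wnt10a level lay below the limit of 3 counts in fibroblast-like and Paneth-like cells, so that its highest class is not known either. Wls, the protein that carries Wnt ligands to the surface, had 317 CPM in fibroblast-like and 126 CPM in T or NK-like cells. Rspo1, an R-spondin, had 544 CPM in fibroblast-like cells and 0.0309 CPM in enterocyte-like cells, whereas Rspo4 had 3.78 CPM in enteroendocrine-like cells and Rspo2 and Rspo3 had 2 and 7 UMIs over the gated classes. Of their receptors, Lgr4 had 58.5 CPM in goblet-like and 57.0 CPM in progenitor-like cells. Lgr5, the stem cell marker, had 24.1 CPM in tuft-like and 15.5 CPM in progenitor-like cells and 0.139 CPM in enterocyte-like cells, and Lgr6 had 5 UMIs.

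Of these 79 genes, 35 could be tested for a label difference in enterocyte-like cells, where 6 rose and 13 fell with the IE-HuR-/- label (28.6% and 31.3% of all features), with a median log2 fold change of -0.18. The 6 higher genes were Ccnd1 (2.15, SE 0.14, 0.969 to 1.33 CPM in the control libraries and 4.08 to 4.49 in the others), a cyclin that drives division, Wnt9a (1.07, SE 0.38, in overlapping groups), the guidance receptor Ephb2 (0.63, SE 0.13), the TCF factor Tcf7l2 (0.37, SE 0.042) and the kinases Gsk3a (0.26, SE 0.043) and Csnk1a1 (0.12, SE 0.043), of which Csnk1a1 turned in direction without TMM. The 6 lowest were Wnt6 (-1.87, SE 0.25), Wnt4 (-1.84, SE 0.15), the Frizzled Fzd8 (-1.59, SE 0.21), Wls (-0.80, SE 0.21), the transporter Slc12a2 (-0.80, SE 0.20) and Notum (-0.77, SE 0.28), an enzyme that inactivates Wnt ligands. Wnt4 had 3.84, 4.49 and 3.90 CPM in the control libraries and 0.976, 1.21 and 0.834 CPM in the others, without overlap. In progenitor-like cells 0 of 15, in tuft-like cells 0 of 12, in fibroblast-like cells 0 of 11 and in enteroendocrine-like cells 0 of 22 such genes were called, and none could be tested in Paneth-like cells. In goblet-like cells Wls, Lgr4, Ephb2 and Prox1 were higher (1.19, 0.65, 1.11 and 1.38) and Sp5 and Slc12a2 lower (-1.60 and -1.14), of 19 tested, in a class that was added after its values could be seen.

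Genes whose level followed that of a member most closely were found by Pearson's r of log2(TMM CPM + 1) over 64 sums of class and library, which share libraries and depth. Wnt3 was most like Pla2g2f (0.84), Fam222a (0.83) and Tmed6 (0.79), and Sox9 like Clic6 (0.88), Lgr5 (0.82) and Wnk2 (0.80). The receptors gave Elovl6 (0.85) and Blzf1 (0.84) for Fzd5, Cd151 (0.76), Agap1 (0.74) and Mmp14 (0.74) for Fzd7, Sqor (0.81) and Mov10 (0.78) for Lrp5, and Crk (0.84), Uhmk1 (0.83) and Napg (0.83) for Lrp6. Rnf43 was most like Zfpm1 (0.73), Elf3 (0.73) and Slc39a5 (0.72), Axin2 like Glod5 (0.79), Baiap2l2 (0.71) and Prdx1 (0.70), and Ctnnb1 like Dsg2 (0.89), Ctnnd1 (0.88) and Klf4 (0.88), of which Dsg2 and Ctnnd1 encode proteins of cell contacts. Znrf3, as a gene too low for the class fit, was left out. These correlations describe the sums and carry no test.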

How the data were processed

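Single-cell suspensions of small intestinal epithelium were made into droplet libraries, 1 per mouse. Raw UMI counts for each barcode, not normalized, were deposited by the authors on 32285 mouse features of mm10, and every deposited barcode has at least 500 UMIs. The count tables were written by Cell Ranger 6.1.2 per the file headers, the labels' processing notes also name Seurat, and the methods name another Cell Ranger version, a human reference and a 3′ kit where the labels name a 5′ kit. Whether intronic reads were counted is not given in the sources used here.

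Barcodes with at least 200 genes (60431) were gated by the share of UMIs from marker lists: 2% for Paneth, 0.2% for progenitor (with epithelial markers at 0.3% or more and immune markers under 0.1%), 5% for enterocyte, 0.5% for tuft and fibroblast, 5% for goblet and 1% for enteroendocrine cells, with a minimum number of marker genes. Cut-offs were set after numbers of cells were seen. Near the gates, 4 Paneth-like cells lay within 25% above and 8 barcodes within 25% below the cut-off, and for progenitor-like cells 25 and 29. No doublet caller was run, and 480 barcodes over more than 1 gate were left out. Counts were summed per class and library and fitted with edgeR 4.0.16 under R 4.3.3 (TMM scaling, features kept by filterByExpr at min.count 10 and min.total.count 15, robust quasi-likelihood test, Benjamini-Hochberg adjusted over all features, threshold 0.05). Classes of at least 10 cells per library entered 1 fit with the library as a block for class differences and label differences between classes. The label fits in goblet-like and enteroendocrine-like cells, and the version without barcodes over 100000 UMIs, were added after seeing the data. The tests were tried on simulated counts. Python 3.11.15 with scipy 1.17.1 gave the intervals.

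The members and lists were chosen with earlier results of these data known. Named genes were the members, Elavl1, list genes called in a class (if over 12, the 6 highest and 6 lowest), ligands, R-spondins and Lgr receptors by their highest class, and the 3 genes most like each member with at least 100 UMIs, of which 2 are not reported here. Replicates are separate mice, and chi-square per degree of freedom between libraries of 1 label was between 11.5 and 35.8, above sampling noise in every pair.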

Additional observations from a re-analysis of the deposited data

Results flagged for a closer look

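In B or plasma-like cells the label difference of Ctnnb1 was lower than that in enterocyte-like cells by a log2 difference of -1.19 (SE 0.32, edgeR adjusted p = 0.0425, in the fit of all classes), the only member for which a difference between classes passed the test. Ctnnb1 had 127, 250.3 and 167 CPM there in the control libraries and 90.4, 80.9 and 82.5 CPM in the others, which do not overlap. The makeup of this class also moved with the label. Its own markers made up 1.196% to 3.656% of UMIs in the control libraries and 7.62% to 23.4% in the others, enterocyte markers 0.706% to 1.503% and 0.407% to 0.515%, general epithelial markers 0.134% to 0.291% and 0.0858% to 0.101%, and goblet markers 0.164% to 0.223% and 0.0788% to 0.0968%, with no marker of these lists at 0, and their part in the Ctnnb1 difference was not tested. The class held 198 cells and 115 Ctnnb1 UMIs, and 0.496% of all features were called lower in the same comparison. Groups of 3 libraries are too small for a test of single outlying libraries.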

How the results depend on the processing

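Paneth-like sums held from 19251 UMIs upward, and no member there reached the counts needed for a label test. Over all alternatives the number of members called stayed at 0 for the label difference in progenitor-like, tuft-like, fibroblast-like, Paneth-like and enteroendocrine-like cells, and was between 6 and 8 in enterocyte-like cells.

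The number of features called in enterocyte-like cells, 7392, was between 5524 and 8072 over the alternatives. In the other classes it moved by more in proportion. Without a filter on low counts they were 40 in progenitor-like, 6 in Paneth-like, 54 in tuft-like, 56 in fibroblast-like and 315 in enteroendocrine-like cells. With the stricter gate they were 1 in progenitor-like and 4 in Paneth-like cells, and with the looser gate 6 in Paneth-like and 32 in enteroendocrine-like cells. With cells of 500 genes or more and no more than 25% mitochondrial UMIs they were 6 in tuft-like and 33 in enteroendocrine-like cells, and Paneth-like cells could not be fitted. Without barcodes over 100000 UMIs, Paneth-like cells gave 7. DESeq2 gave 921 in goblet-like cells. Without 1 library each they ranged from 4 (IE-HuR-/- replicate 2) to 51 (control replicate 2) in progenitor-like, 2 (control replicate 2) to 84 (control replicate 1) in Paneth-like, 3 (IE-HuR-/- replicate 2) to 28 (IE-HuR-/- replicate 1) in tuft-like, 17 (IE-HuR-/- replicate 2) to 35 in fibroblast-like, 1002 (IE-HuR-/- replicate 3) to 1674 in goblet-like and 20 (IE-HuR-/- replicate 1) to 98 (control replicate 3) in enteroendocrine-like cells. The cause was not tested.

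Replicate numbers did not pair the libraries. After the mean of each label was taken off the log CPM, libraries of 1 number correlated at -0.17 to 0.54. No class was above 0.1 in all 3. With the number as a replicate block 7272 features and 7 members were called in enterocyte-like, 19 features in progenitor-like, 70 in Paneth-like, 4 in tuft-like, 45 in fibroblast-like, 1655 in goblet-like and 194 in enteroendocrine-like cells, and the block changed no count of members called between labels.

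In goblet-like cells 0 members were called without TMM, with DESeq2, with the looser gate and with at least 500 genes, 2 with the stricter gate, and 0 to 1 without 1 library each. For class differences, the fit without barcodes over 100000 UMIs kept 1 Paneth-like control sum, so its count of members is not given. Members called in Paneth-like cells were 3 to 6 without 1 library each. The looser gate and the filter on genes could not be fitted there. Members called were 4 in progenitor-like and 6 in goblet-like cells with the stricter gate, and 4 in tuft-like cells without TMM. For label differences between classes, 1 member was called in Paneth-like and 1 in progenitor-like cells without a filter on low counts, 1 in progenitor-like cells with the looser gate, and 0 to 1 there without 1 library each. Single values turned in direction without TMM for Fzd5 in enterocyte-like cells between labels (-0.030). Between classes this held for Fzd5 (0.63) and Lrp6 (0.17) in progenitor-like, Lrp6 in tuft-like (0.18) and Lrp5 in enteroendocrine-like cells (0.43). Sox9 in Paneth-like cells turned without barcodes over 100000 UMIs (-1.09), in the fit where control replicate 1 was the only Paneth-like control sum. Fibroblast-like label differences between classes could not be fitted with the stricter gate, with at least 500 genes or without IE-HuR-/- replicate 3. Of the other values of single genes, 1597 kept their side of the threshold, 68 lost and 43 gained a call.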

Other observations

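Further genes of the pathway list differed in level between classes. Wif1, a secreted protein that binds Wnt ligands, had 338 UMIs in enteroendocrine-like cells (71.0 CPM) and 0.0347 CPM in enterocyte-like cells. Sfrp5, another secreted inhibitor, had 17.0 CPM in enteroendocrine-like and 7.13 CPM in progenitor-like cells. Prox1, a transcription factor, had 119 CPM in tuft-like and 102 CPM in enteroendocrine-like cells, and Dvl1, which relays the signal of Frizzled receptors, had 72.9 CPM in tuft-like against 25.5 CPM in enterocyte-like cells. Of the 89 genes of the list including the members, 34 were highest in fibroblast-like cells among the classes with at least 5 UMIs of the gene. A further 9 were highest in enteroendocrine-like and 9 in enterocyte-like cells, the latter including Wnt6, Wnt9b and Wnt16, whose order among classes is not known. Progenitor-like cells had 7, tuft-like 5 and Paneth-like cells 5, and 10 genes had fewer than 10 UMIs over the gated classes. These genes were picked after their values were seen, and no test was made of them here. The share of all features highest in each class is not given here, so the counts per class have nothing to be judged against. The limit of 5 UMIs is also a higher CPM in small classes, such as fibroblast-like and Paneth-like cells, than in enterocyte-like cells.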
